A study of Rattus norvegicus with 6 samples.

Results

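Smooth muscle contractile genes were followed in primary disc cells of the rat temporomandibular joint (TMJ), where the disc is a fibrous cushion in the jaw joint. The set was a list of 10 symbols, Acta2, Actg2, Tagln, Cnn1, Myl9, Myh11, Tpm1, Tpm2, Lmod1 and Smtn, and all 10 were found among the 20675 genes of the deposited table. One group received GSK101, an agonist of the calcium-permeable channel TRPV4, for 24 h, and the other received the solvent DMSO for the same time. RNA was sequenced from 3 libraries per group. The sources used here state neither the strain, sex and age of the animals, nor the dose, nor whether replicates came from separate animals or cultures, so p-values measure only the spread between these libraries, which may be partly technical.

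Smooth muscle cells and contractile fibroblasts pull by sliding actin filaments past myosin filaments. The actin filament carries tropomyosin along its groove, with calponin and transgelin bound to it, and myosin is switched on when a rise in calcium activates a kinase that phosphorylates its regulatory light chain. Many of these genes are targets of serum response factor (SRF), which binds the CArG box in DNA together with coactivators of the myocardin family. In fibroblasts, smooth muscle alpha actin is the usual marker of the myofibroblast, the contractile form of the cell.

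The libraries held 43061102 to 45705238 counted reads, and every member was read deeply, from 8943 reads in the lowest library for Cnn1 to 745374 in the highest for Tpm2. Levels are in RPKM, reads divided by gene length and by the counted reads of the library, so they can be compared between genes. The cells had abundant Col1a1 (1490.2 to 2028 RPKM), the main collagen of the disc, while Col2a1, the collagen of hyaline cartilage, lay between 0 and 0.04 RPKM. Acan, the cartilage proteoglycan, lay between 29.8 and 37.6, and Sox9, the cartilage transcription factor, between 2.22 and 2.92 RPKM. Of 7 leukocyte markers found, the macrophage genes Cd68 and Cd14 were the highest, at 3.99 to 7.18 and 1.78 to 3.53 RPKM, Aif1 was at 0.90 to 1.32 RPKM, and Ptprc, the pan-leukocyte marker, reached 0.58 RPKM. Of 8 endothelial markers found, Egfl7 was at 7.77 to 9.12 RPKM, Kdr reached 1.07 RPKM, and Cdh5, the endothelial cadherin, reached 0.05 RPKM.

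Of the 10 contractile genes 9 fell with GSK101 and none rose. Among all 12801 genes tested, 11.9% were lower and 20.1% were higher at a Benjamini-Hochberg adjusted p under 0.05 in limma. The groups did not overlap for the 9 genes, which is the case with lower values for 18.7% and with higher values for 28.5% of all tested genes. In either direction 31.9% of all tested genes were called. The median log2 fold change of the 10 was -0.55, beside 0.03 over all tested genes. Smtn was the 1 member that did not pass. As these are bulk samples, fewer cells expressing the genes and less RNA per cell cannot be told apart.

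The SRF binding motif was looked for in the RefSeq promoter windows (build GRCr8) of the 6 members that had one, reaching from 250 bases before to 50 bases after the transcript start. The windows shown are those of the member of the actin family with the highest level, of the member that did not change beyond its error, and of a non-muscle actin. Each line gives the 250 bases before the start, 5′ to 3′ on the gene's own strand, with capitals at every 10-base stretch that is a CArG box or is 1 letter away from one.
Acta2: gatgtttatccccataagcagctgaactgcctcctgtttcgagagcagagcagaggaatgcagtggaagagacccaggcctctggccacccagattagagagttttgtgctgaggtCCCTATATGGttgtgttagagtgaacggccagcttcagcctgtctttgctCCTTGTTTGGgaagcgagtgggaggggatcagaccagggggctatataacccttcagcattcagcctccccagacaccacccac
Smtn: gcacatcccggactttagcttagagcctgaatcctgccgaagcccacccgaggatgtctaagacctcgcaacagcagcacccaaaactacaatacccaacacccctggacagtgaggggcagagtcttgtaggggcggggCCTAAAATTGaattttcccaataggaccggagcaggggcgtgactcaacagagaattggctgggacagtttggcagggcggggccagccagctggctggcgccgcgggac
Actg1: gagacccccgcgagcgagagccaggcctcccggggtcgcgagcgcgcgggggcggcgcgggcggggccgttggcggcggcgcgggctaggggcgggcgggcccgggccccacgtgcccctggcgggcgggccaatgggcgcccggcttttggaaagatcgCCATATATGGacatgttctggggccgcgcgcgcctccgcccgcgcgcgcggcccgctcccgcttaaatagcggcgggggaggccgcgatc

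The printed stretch of Acta2 lies at chr1:241172504-241172753, that of Smtn at chr14:82644515-82644764 and that of Actg1 at chr10:106120952-106121201, all on the minus strand. The Acta2 window held 2 stretches 1 letter away from a CArG box, starting 134 and 84 bases before the transcript start. Tpm1 also held 2, starting 195 and 55 bases before its start, and Smtn held 1, starting 110 bases before its start. No exact CArG box was found in the 6 windows, and 3 of the 6 held at least 1 near match. Of all 33469 windows of this length, 1.64% held an exact box and 21.3% held an exact box or a near match, on either strand, since the motif reads the same on both. Of 27 windows of paralogs, the relatives described below, 4 held an exact box and 9 held an exact box or a near match. Actg1, whose transcript did not pass the test below, had an exact box starting 90 bases before its start. Acta1 and Cnn2, which both fell, had exact boxes starting 94 and 71 bases before their starts. Actc1, too low to be tested, also had an exact box. Among the members, the windows of Actg2, Cnn1 and Tpm2 held neither an exact box nor a near match. The transcript start of the Actg2 window lies 10340 bases inside the gene's outer end, so the sequence before that outer end was not searched. Tagln, Myl9, Myh11 and Lmod1 had no window in the table. A match of letters, or its absence, describes the sequence only. Binding was not measured, and boxes outside these windows were not looked for.

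Acta2 encodes smooth muscle alpha actin and lies on chromosome 1 from 252537615 to 252550394 in the Rnor_6.0 build used by the file. Its level was 5066, 4906 and 4867 RPKM in the DMSO libraries 1 to 3 and 2627, 2709.6 and 2866 RPKM in the GSK101 libraries. The highest GSK101 library lay far below the lowest DMSO library. The mean was 44.7% lower, a log2 fold change of -0.86 (SE 0.05, 95% interval -0.97 to -0.74, limma adjusted p = 0.000101), and the gene ranked 6 to 8 by RPKM in the DMSO libraries and 20 to 21 with GSK101. Actg2, on chromosome 4 from 115215060 to 115239723, encodes smooth muscle gamma actin of visceral muscle and was less abundant than Acta2, whose RPKM was 10.8 ± 0.45 times as high in the controls (SD, n = 3). Its values were 456, 446 and 473 RPKM with DMSO and 231, 225.5 and 246 RPKM with GSK101. The groups stood well apart, and Actg2 had the largest fall of the set, by 0.97 log2 units (SE 0.05, adjusted p = 8.28e-05), rank 22 from the lowest fold change of all tested genes. An unnamed gene, AC115473.1, lies almost wholly within the exons of Actg2 on the same strand (82 of its 83 bases) and had a mean of 854 RPKM with DMSO and 423 with GSK101.

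The tropomyosin genes Tpm1 and Tpm2 encode coiled-coil proteins that run along actin filaments and gate the access of myosin, and both genes also make forms found outside muscle. Tpm2, on chromosome 5 from 59016622 to 59025631, was rank 2 by RPKM in all 6 libraries, at 10635, 10730.1 and 11325 RPKM with DMSO and 7718, 7546 and 8804 RPKM with GSK101. All GSK101 values lay below all DMSO values, with the widest spread of the set among the GSK101 libraries (coefficient of variation 8.50%). The fall was 0.44 on the log2 scale (SE 0.07, adjusted p = 0.00296), and it was 0 after quantile normalization, which gives a gene of equal rank in all libraries an equal value. Tpm1, on chromosome 8 from 72814740 to 72842228, had 1927, 1898 and 1928 RPKM with DMSO and 1478, 1471 and 1626 RPKM with GSK101. The DMSO libraries of Tpm1 were within a coefficient of variation of 0.87%, and the groups did not overlap. Tpm1 fell by 0.33 log2 units (SE 0.05, adjusted p = 0.00256).

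Transgelin and calponin are related actin-binding proteins of the smooth muscle thin filament. Tagln, on chromosome 8 from 50222896 to 50231357, was at 4174, 4061 and 4168 RPKM with DMSO and 2451, 2468 and 2697 RPKM with GSK101. The groups were wide apart, and Tagln fell by 0.70 log2 units (SE 0.05, adjusted p = 0.000149). Its exons share 204 of 1254 bases with Sidt2 on the same strand, a gene of 5.90 RPKM with DMSO and 5.17 with GSK101. Cnn1, also on chromosome 8, from 23113048 to 23121761, encodes calponin 1, an inhibitor of the myosin ATPase. It was at 199.8, 189.8 and 188 RPKM with DMSO and 134, 135 and 149.7 RPKM with GSK101, without overlap, and fell by 0.46 log2 units (SE 0.05, adjusted p = 0.000799).

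Leiomodin 1 nucleates actin filaments in smooth muscle, and smoothelin is a filament-bound protein of contractile smooth muscle cells. Lmod1, on chromosome 13 from 52147555 to 52190228, had 435, 423 and 422 RPKM with DMSO and 337, 350.3 and 377 RPKM with GSK101. The groups did not overlap, but this was the smallest fall among the 9, by 0.27 log2 units (SE 0.05, adjusted p = 0.00539). Smtn, on chromosome 14 from 83755142 to 83776863, had 102, 95.4 and 91.1 RPKM with DMSO and 101, 98.1 and 94.9 RPKM with GSK101. These values overlapped fully, and the log2 fold change was 0.03 with a 95% interval from -0.09 to 0.15 (limma adjusted p = 0.71).

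Myh11 and Myl9 belong to the myosin filament, as the heavy chain that carries the motor and the light chain that switches it. Myh11, the smooth muscle myosin heavy chain on chromosome 10 from 764421 to 859184, had 402, 386 and 399.9 RPKM with DMSO and 245, 250.5 and 270.2 RPKM with GSK101. Myl9, the regulatory light chain of smooth muscle on chromosome 3 from 152857592 to 152863960, had 1546, 1574 and 1621 RPKM with DMSO and 982, 991 and 1089.6 RPKM with GSK101. For both genes every GSK101 library lay below every DMSO library. The falls were alike in size, 0.63 on the log2 scale for each (SE 0.05 for both, adjusted p = 0.000158 for Myh11 and 0.00023 for Myl9).

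**Figure D1:**
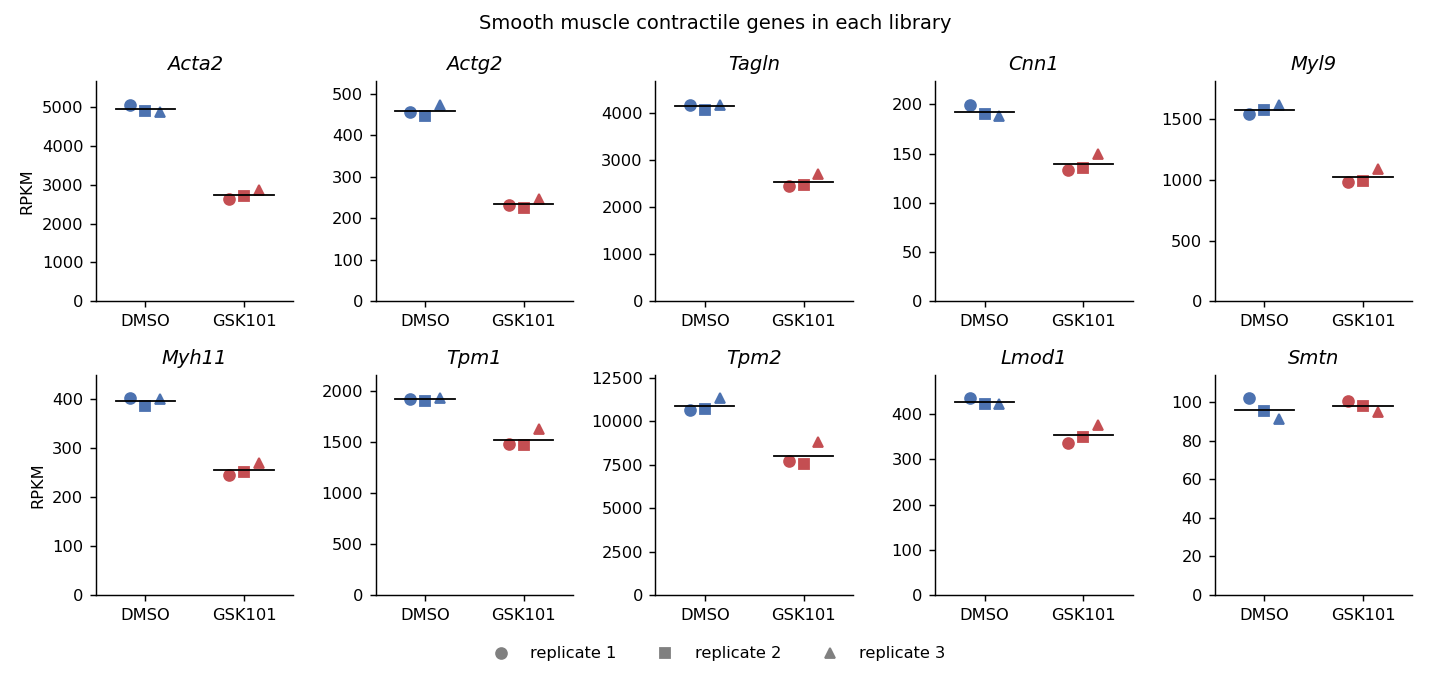
RPKM of the 10 contractile genes in the 3 DMSO libraries (blue) and the 3 GSK101 libraries (red), with the marker shape giving the replicate number and the line the group mean; each axis starts at 0. The groups are apart for 9 genes and overlap for Smtn.

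Together the 10 genes took 4.13% to 4.25% of the counted reads in the DMSO libraries and 2.79% to 3.11% in the GSK101 libraries. On a per-length scale (TPM, RPKM rescaled to the same sum in each library) they made up 4.14 ± 0.06% of transcripts with DMSO and 2.87 ± 0.16% with GSK101 (SD, n = 3). Leaving out Tpm2, the most abundant, the shares were 2.34 ± 0.06% and 1.51 ± 0.06%. No p-value is given for these sums, since the genes were chosen with results of these data known.

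Most of the proteins have close relatives in non-muscle cells or in striated muscle, and the values of both kinds stand beside those of the contractile genes. Of 23 paralogs listed, 22 were found and 17 were tested; 8 fell and 2 rose, with a median log2 fold change of -0.21. Ratios and shares within a library do not depend on a scaling factor between libraries. They are given without a test, since 3 libraries against 3 allow no exact two-sided permutation p under 0.1.

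Among the actins, the cytoplasmic gene Actb fell by 0.23 log2 units (SE 0.05, limma adjusted p = 0.00736), a call that was lost after quantile normalization (log2 fold change -0.16, adjusted p = 0.0713). The other cytoplasmic gene, Actg1, did not pass (log2 fold change -0.03, 95% interval -0.15 to 0.09), and an unnamed gene shares 83 bases of its exons on the same strand. Acta1, skeletal muscle actin, was low at 12.4 ± 0.85 RPKM with DMSO and 7.69 ± 0.42 RPKM with GSK101 (SD, n = 3), a fall of 0.65 log2 units. The ratio of Acta2 to Actb was 2.43, 2.49 and 2.52 in the DMSO libraries and 1.54, 1.57 and 1.72 in the GSK101 libraries. Acta2 made up 58.0% to 58.9% of actin transcripts per length with DMSO and 46.9% to 49.4% with GSK101, while Actg1 went from 12.3 ± 0.44% to 17.9 ± 0.42% of them. The ratio of Acta2 to Actg2 was 10.3 to 11.1 with DMSO and slightly higher, 11.4 to 12.0, with GSK101.

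In the tropomyosin family the levels of the genes mainly expressed outside muscle did not pass the test. Tpm4 was at 6408 ± 33.0 RPKM with DMSO and 6371 ± 287 RPKM with GSK101 (log2 fold change -0.01, 95% interval -0.13 to 0.11). Tpm3 was at 646 ± 21.2 and 644 ± 6.73 RPKM (SD, n = 3; log2 fold change 0.00, interval -0.10 to 0.09). The share of Tpm2 in tropomyosin transcripts went from 54.8 ± 0.91% to 48.4 ± 0.99% and that of Tpm4 from 32.3 ± 0.68% to 38.5 ± 0.72%, without overlap between the groups. The share of Tpm1 moved little, from 9.65 ± 0.14% to 9.21 ± 0.08%, also without overlap.

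The non-muscle myosin heavy chains Myh9 and Myh10 were not called either, at log2 fold changes of -0.10 (95% interval -0.23 to 0.04) and 0.07 (95% interval -0.05 to 0.18). With the gene length trend removed, an alternative chosen after seeing the data, both were called lower, by 0.26 and 0.14. Myh11 made up 22.2% to 24.6% of the myosin heavy chain transcripts with DMSO and 16.6% to 18.2% with GSK101. The light chain genes of non-muscle myosin also fell. Myl6, the essential light chain shared by smooth and non-muscle myosin, fell by 0.40 log2 units from 4026 ± 120 RPKM (adjusted p = 0.0017), which was lost after quantile normalization (log2 fold change -0.13, adjusted p = 0.0893), and the regulatory light chains Myl12a and Myl12b fell by 0.30 each. The ratio of Myl9 to Myl12a was lower in each GSK101 library, at 2.54, 2.67 and 2.83, than in the DMSO libraries, at 3.32, 3.38 and 3.43.

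All 3 calponins fell, whereas the transgelins moved in opposite directions. Cnn3 and Cnn2, calponins of non-muscle cells, fell by 0.46 and 0.27 on the log2 scale (adjusted p = 0.000269 and 0.00158 in limma). The ratio of Cnn1 to Cnn3 was 1.16 to 1.25 with DMSO and 1.16 to 1.26 with GSK101 and overlapped fully, whereas that of Cnn1 to Cnn2 was 1.29 to 1.32 and 1.09 to 1.25, without overlap. Tagln2, the transgelin of non-muscle cells, rose by 0.26 log2 units (adjusted p = 0.00202), from 227 ± 5.77 to 272 ± 4.26 RPKM (SD, n = 3). The ratio of Tagln to Tagln2 was 18.3 ± 0.52 in the DMSO libraries and 9.34 ± 0.59 in the GSK101 libraries (SD, n = 3), without overlap. Tropomodulins cap the pointed end of the actin filament and are relatives of leiomodin. Tmod3, the abundant one, rose by 0.42 (adjusted p = 0.000519), Tmod1 fell by 0.62 from 1.68 RPKM, and Tmod2 did not pass (log2 fold change -0.21, adjusted p = 0.15). Tstd2 overlaps 503 of the 2538 exon bases of Tmod1 on the opposite strand, and whether strand was used in counting is not stated. Its mean was 4.62 RPKM with DMSO and 4.74 with GSK101. The smoothelin-like genes Smtnl1 and Smtnl2 were at or below 0.07 RPKM in every library and were not tested.

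**Figure D2:**
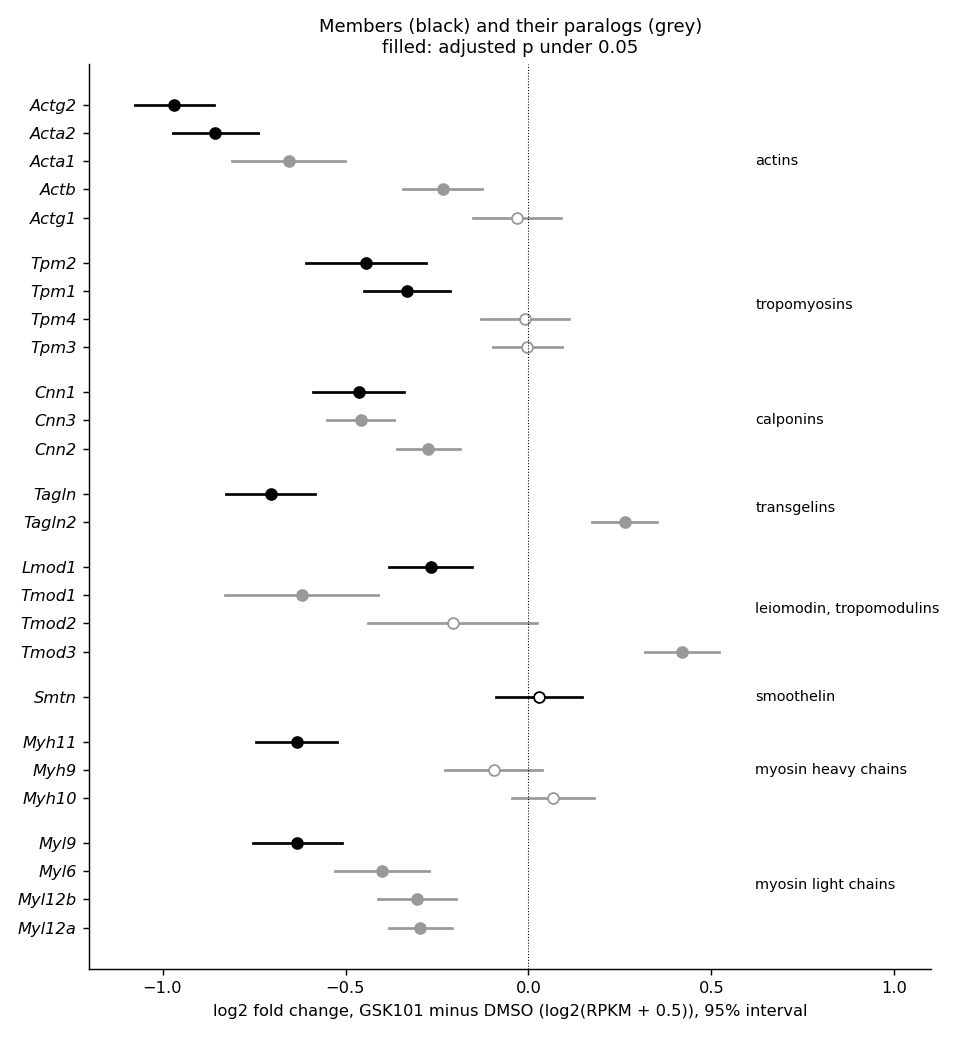
Log2 fold change (GSK101 minus DMSO, log2(RPKM + 0.5) scale) with its 95% interval for the 10 contractile genes (black) and their paralogs with a mean RPKM of at least 1 (grey), by family; filled points passed an adjusted p of 0.05 in limma. Actg2 lies lowest at -0.97, and Tagln and Tagln2 lie on opposite sides of 0. The intervals of Smtn, Actg1, Tpm3, Tpm4, Myh9, Myh10 and Tmod2 include 0.

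**Figure D3:**
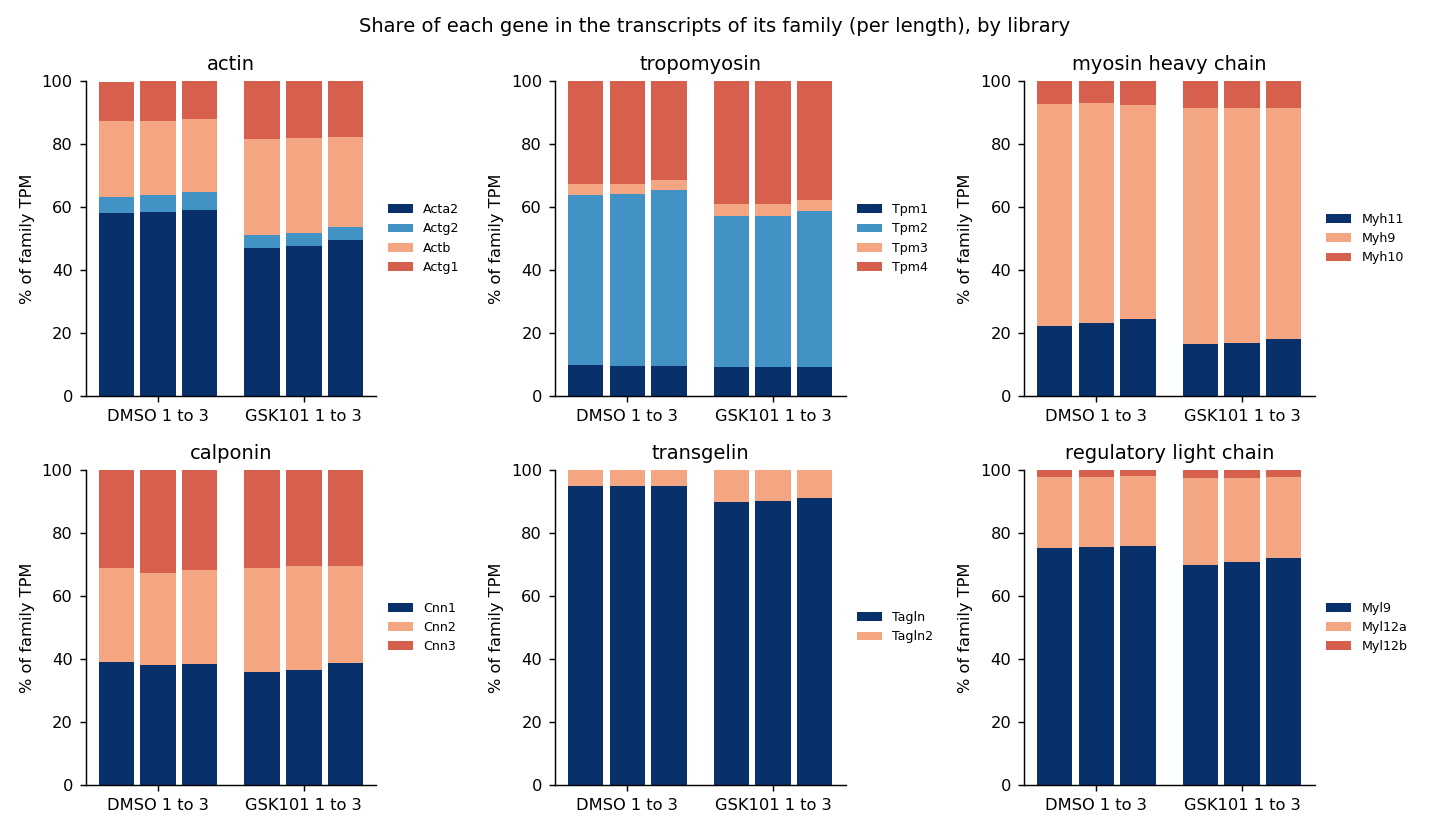
Stacked bars give the percentage of each family's transcripts (TPM) held by each gene in each of the 6 libraries, blue for the contractile genes and orange or red for paralogs, with genes under 0.5% not drawn. The blue part is smaller in every GSK101 library than in every DMSO library for actins, tropomyosins, myosin heavy chains, transgelins and regulatory light chains, and overlaps for calponins.

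The transcripts of SRF and of its coactivators myocardin and MRTF-A did not pass the test. Srf was at 12.8 ± 0.90 RPKM with DMSO and 13.3 ± 0.40 RPKM with GSK101 (SD, n = 3; log2 fold change 0.05, 95% interval -0.09 to 0.19, limma adjusted p = 0.56). Mkl1, which encodes the actin-sensing coactivator MRTF-A, was at 8.04 ± 0.42 and 8.02 ± 0.24 RPKM (log2 fold change 0.00, interval -0.14 to 0.13). Myocd, which encodes myocardin, was at 4.01, 3.32 and 4.33 RPKM with DMSO and at 4.76, 4.44 and 4.84 RPKM with GSK101. Its groups did not overlap, with higher values under GSK101, but it did not pass (log2 fold change 0.24, adjusted p = 0.0856). It passed with limma-voom (adjusted p = 0.0219) and without DMSO replicate 3 (adjusted p = 0.0456), while its log2 fold change was 0.15 without DMSO replicate 2 (adjusted p = 0.20) and 0.11 with the gene length trend removed (adjusted p = 0.40). A gene of the file overlaps its exons on the same strand by 109 bases. Mkl2 was also listed but was not found in the deposited data under that symbol or as Mrtfb. The RefSeq window of Srf itself held 2 exact CArG boxes, starting 81 and 61 bases before its start.

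Of 18 tested transcriptional regulators of contractile genes, these 3 included, 5 fell and 1, Elk4, rose, with a median log2 fold change of -0.02. None rose without DMSO replicate 2, without GSK101 replicate 1 or 2, after quantile normalization or with the gene length trend removed, and 2 rose when rescaled to TPM or with limma-voom. Fhl1 and Fhl2 encode LIM-domain proteins that bind muscle transcription factors and the cytoskeleton, and they fell by 0.76 (adjusted p = 0.000102) and 0.34 (adjusted p = 0.00464) in limma. Fhl1 was at 25.5 ± 0.18 RPKM with DMSO and 14.8 ± 0.70 RPKM with GSK101 (SD, n = 3). Csrp2, a LIM protein of smooth muscle, fell by 0.26, and Tead3, a DNA-binding partner of YAP, by 0.19 on the log2 scale, or by 0.34 with the gene length trend removed. Rpl10a overlaps 715 of the 5874 exon bases of Tead3 on the opposite strand. Mfsd4, at a mean of 1.16 RPKM with DMSO and 1.78 with GSK101, likewise overlaps 1689 of the 10484 exon bases of Elk4. The sources used here do not state whether strand was used in counting.

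The genes that set the phosphorylation of the myosin light chain moved in both directions. Of 23 tested, 7 fell and 6 rose, with a median of -0.02. Beside this and the other list counts, 11.9% of all tested genes were lower and 20.1% were higher. With the gene length trend removed 8 of the 23 fell and 2 rose, beside 2137 and 1877 of all 12801 tested genes. Without GSK101 replicate 1 or 2 the number of the 23 that rose was 3. Mylk, the myosin light chain kinase, fell by 0.44 log2 units from 6.02 ± 0.28 to 4.32 ± 0.06 RPKM (SD, n = 3; limma adjusted p = 0.00164). Ppp1r14a, an inhibitor of myosin phosphatase in smooth muscle, fell by 0.45 from 180.1 ± 7.86 to 132 ± 9.10 RPKM (adjusted p = 0.00132). Rhoc, a small GTPase, fell by 0.27 (adjusted p = 0.0021). Rock2, a kinase that restrains myosin phosphatase, rose by 0.51 from 70.8 ± 6.39 to 101 ± 4.79 RPKM (adjusted p = 0.00161), and by 0.31 with the gene length trend removed. Rhoa and Cald1, named here after their values were seen, were not called, each at a log2 fold change of -0.05.

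Of 34 tested genes that anchor, cross-link or turn over actin filaments, 12 fell and 5 rose, with a median log2 fold change of -0.11; the counts were 17 and 3 with the gene length trend removed. The number of these genes that rose was also 3 without DMSO replicate 3 and without GSK101 replicate 1 or 2. It was 3 as well with median-ratio scaling and with quantile normalization. Pdlim1 and Pdlim7, PDZ and LIM adaptors of actin bundles, fell by 0.45 (adjusted p = 0.000242) and 0.37 (adjusted p = 0.000674). Itgb1, the integrin beta 1 subunit, fell by 0.31 from 612 ± 13.0 to 492 ± 6.60 RPKM (SD, n = 3; limma adjusted p = 0.000962). Tes, the focal adhesion protein testin, rose by 0.31 (adjusted p = 0.00136). Of 22 tested myofibroblast genes 7 rose and 5 fell, with a median of -0.01, and 3 rose and 8 fell with the gene length trend removed. With median-ratio scaling 5 rose and 6 fell. Itga11, a collagen-binding integrin subunit, fell by 0.86 from 135 ± 7.29 to 74.3 ± 4.01 RPKM (adjusted p = 0.000107), and Ltbp2, a microfibril-associated protein, fell by 0.44. Lox, the collagen cross-linking enzyme, rose by 0.47, and Pdgfra, a receptor for platelet-derived growth factor, by 0.43, or by 0.26 with the gene length trend removed. Without GSK101 replicate 1 or 2 the number of myofibroblast genes that rose was 2, and it was 4 without DMSO replicate 2 or 3.

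**Figure D4:**
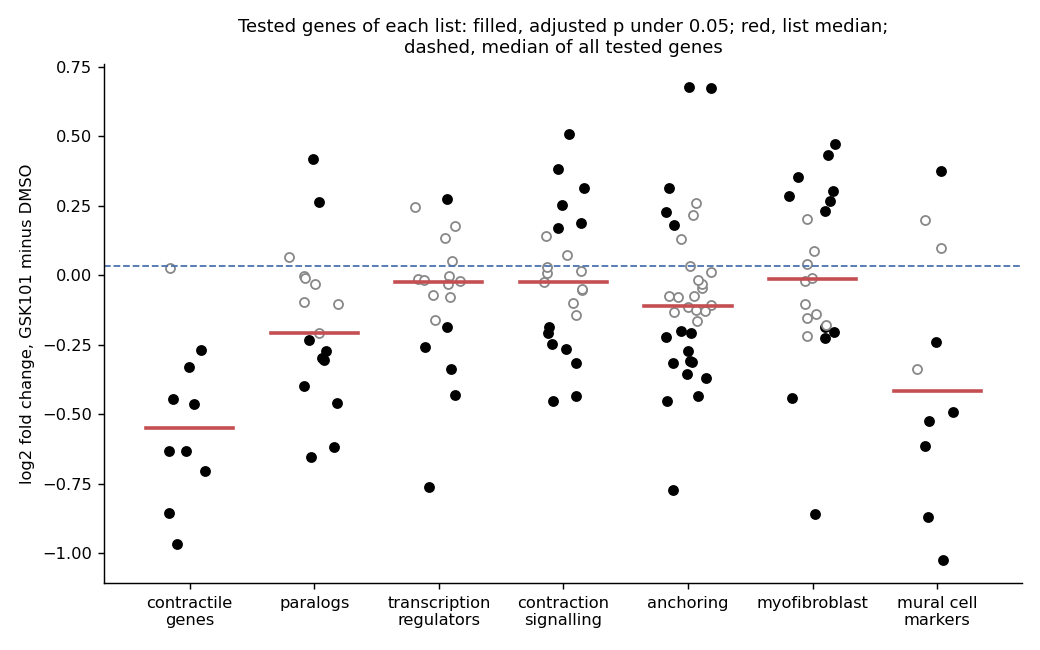
Log2 fold change (GSK101 minus DMSO) of every tested gene in 7 lists, filled where the adjusted p was under 0.05 in limma, with the list median in red and the median of all 12801 tested genes, 0.03, as a dashed line. The contractile genes have a median of -0.55, mural cell markers -0.42, and transcription regulators, contraction signalling and myofibroblast genes lie near 0. The mural median includes Heyl and Pln, which passed the filter on low values only through the DMSO libraries.

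Mural cells, the pericytes and smooth muscle cells of vessel walls, share the contractile program. Of the 10 tested mural cell markers outside the set, 6 fell and 1, Ednra, rose. The number that rose was 2 without DMSO replicate 1 and with limma-voom. It was 0 without GSK101 replicate 1 or 2 and with the gene length trend removed. Among those that fell, Heyl and Pln reached the filter of 0.5 RPKM only in the DMSO libraries, so the filter favoured a fall for them. With RPKM of at least 1 in all 6 libraries, 4 mural cell markers fell and 0 rose. The summed level of the 14 found was 121 to 135 RPKM in the DMSO libraries and 98.5 to 101 RPKM in the GSK101 libraries. The most abundant were Pdgfrb and Mcam, which fell from 61.9 ± 4.51 to 52.2 ± 2.28 RPKM and from 26.1 ± 0.40 to 18.0 ± 1.21 RPKM, Kcnmb1 (values below), which also fell, and Cspg4, which did not pass, at 10.04 ± 1.20 and 11.6 ± 0.56 RPKM (SD, n = 3). Notch3 fell from 3.37 ± 0.37 to 2.24 ± 0.14 RPKM. Of the 14, the 4 pericyte genes Rgs5, Kcnj8, Abcc9 and Higd1b were at most 0.23 RPKM in any library. Des, the intermediate filament of muscle and a gene of the anchoring list, was at most 0.98 RPKM. The part of mural cells in the fall of the contractile genes was not tested. Of 3 tested skeletal muscle markers 2, Myh4 and Myh3, fell and none rose. Myh3 passed the filter only through the DMSO libraries, so the filter favoured its fall. With RPKM of at least 1 in all 6 libraries, 1 fell. The summed levels of the 10 found were 7.70 to 8.75 RPKM with DMSO and 7.41 to 8.28 RPKM with GSK101. Tnnt3, which was not called, gave the most to them (means 4.37 and 4.97 RPKM), and Myog was at or below 0.03 RPKM. Of 2 tested endothelial and 3 tested leukocyte markers none fell, and 1 of each, Kdr and Cd14, rose; 1 endothelial marker fell after quantile normalization. Of 10 tested markers of disc fibrochondrocytes 1 fell, the tendon factor Scx, and 3 rose, Prg4, Dcn and Lum; without DMSO replicate 3 or GSK101 replicate 2 the counts were 2 and 1. Removing the gene length trend gave 4 that fell and 3 that rose.

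The genes outside the set whose levels ran most like the mean of the 10 over the 6 libraries were Gadd45b, Tgfb3, Kcnmb1, Pdlim1 and Oat, chosen among 5223 genes with a mean of at least 10 RPKM. Their Pearson correlation on the log2 scale was 0.998 to 0.9995 over 6 libraries, which share the group difference. Tgfb3, the transforming growth factor beta 3 ligand, was at 593, 581 and 583 RPKM with DMSO and 369, 378 and 415 RPKM with GSK101. Kcnmb1, the smooth muscle subunit of the large-conductance potassium channel, was at 20.8, 19.5 and 20.1 RPKM with DMSO and 10.5, 10.05 and 11.9 RPKM with GSK101. In both, as in the contractile genes that fell, GSK101 replicate 3 lay above the other GSK101 libraries. The choice of these genes by likeness over the same 6 libraries favours such a shared order, so it is not a separate observation. Oat, ornithine aminotransferase, was lower by only 0.15 log2 units and lost its call when rescaled to TPM or without GSK101 replicate 1 or 2 (limma adjusted p = 0.0514 to 0.0686).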

How the data were processed

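RNA from 6 libraries of rat disc cells, 3 per group, was measured by sequencing polyadenylated RNA in paired-end mode after stranded library preparation with molecular identifiers, per the labels' protocols. The authors deposited RPKM values per gene. Per the submitters' processing notes, the build was Rnor_6.0 and the tools, listed without roles, were edgeR 3.12.1, featureCounts, Trimmomatic 0.36, Subread 1.5.1 and STAR 2.5.3a. How strand, molecular identifiers and multiply mapping reads were handled is not stated, so reads shared by near-identical actin, myosin or tropomyosin genes could not be followed. The RPKM values were whole multiples of 1 read, to within 0.01 read, for 100% of values, and the recovered reads gave the depths. Among low counts, 71.3% to 74.7% were even numbers, depending on the library. Whether both reads of a pair were counted is not stated, so the depths may exceed the number of sequenced fragments.

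limma 3.58.1 (R 4.3.3) was fitted to log2(RPKM + 0.5) in a model with the single factor group and a mean-variance trend, over 12801 genes with RPKM of at least 0.5 in at least 3 libraries. p-values were adjusted by Benjamini-Hochberg over all of them, and a gene was called at an adjusted p under 0.05. Fold changes on this scale understate low genes. The members, lists and alternatives were chosen with earlier results of these data known. Named were the 10 members, Srf, Myocd, Mkl1, paralogs with a mean RPKM of at least 1, up to 4 called genes with the smallest adjusted p per related list, and the 5 genes most alike. Further genes named for their list are descriptions. In total 18 alternatives were run: 2 pseudocounts, 2 filters, 3 scalings, 2 variance models, limma-voom on recovered reads, a replicate block, removal of a gene length trend (loess, span 0.3, added after seeing the data) and each of the 6 libraries left out. The fits were tested on simulated data, where the share of false calls lay above the nominal level, most of all with the replicate block. Promoter sequences are from RefSeq (GRCr8).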

Additional observations from a re-analysis of the deposited data

How the results depend on the processing

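The count of contractile genes that fell was 9 in 17 of the 18 alternatives and 8 after quantile normalization, and none rose in any. Over all tested genes, 1518 fell and 2570 rose, 62.9% of calls being higher. That share was 72.4% when rescaled to TPM, where 1117 fell and 2936 rose, 52.7% with median-ratio scaling, 48.1% with quantile normalization and 46.8% with the gene length trend removed, where 2137 fell. The median log2 fold change of all tested genes stayed between -0.02 and 0.07. The 9 contractile genes kept their calls in all alternatives apart from Tpm2 after quantile normalization (log2 fold change 0), with Acta2 between -0.90 and -0.74, Tagln between -0.75 and -0.47, Myh11 between -0.81 and -0.59 and Lmod1 between -0.39 and -0.21.

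Leaving out each of the 6 libraries in turn left 1055 to 1294 genes lower and 1835 to 2295 higher over all tested genes, with fewer libraries in each fit, while 9 contractile genes fell each time. Without DMSO replicate 3 Myocd passed the threshold. The lowest count of any contractile gene in a library was 8943 reads. The number of libraries per group was 3, which limits the precision.

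Of the 39 called genes that the naming rule gave, none changed direction in the alternatives run, and 6 of their 701 values lost the call. Marker genes named only with their list were followed as list counts. Of the genes not called, some changed sign near 0. With median-ratio scaling Smtn was at -0.0115. With quantile normalization Smtn was at -0.0039, Srf at -0.0057, Actg1 at 0.0424, Tpm3 at 0.0139 and Tpm4 at 0.0239. Rescaled to TPM, Mkl1 was at 0.0347, Actg1 at 0.0069, Tpm3 at 0.034 and Tpm4 at 0.0285. With the gene length trend removed Smtn was at -0.0573, Srf at -0.0587 and Myh10 at -0.137 (limma adjusted p = 0.0444). Leaving out 1 library at a time gave Smtn from -0.0100 to 0.0704, Mkl1 from -0.0238 to 0.0388, Actg1 from -0.0772 to 0.0116, Tpm3 from -0.0265 to 0.0208 and Tpm4 from -0.0454 to 0.0163. The cause was not tested.

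The replicate numbers were not taken to pair the libraries: deviations of same-numbered libraries from their group means correlated at 0.054, -0.063 and 0.052, and DMSO replicate 1 correlated best with GSK101 replicate 2. With the replicate block 9 contractile genes fell and none rose, and over all tested genes 1437 fell and 2508 rose. Under it none of the regulators rose, and 2 disc fibrochondrocyte markers fell and 4 rose.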

Other observations

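In each of the 9 contractile genes that fell, GSK101 replicate 3 had the highest value of the 3 GSK101 libraries. Among all 1518 genes that were lower with GSK101, that library was the highest of the 3 for 34.5%. The median distance of the 9 genes from the DMSO mean was -0.69, -0.66 and -0.54 on the log2 scale in GSK101 replicates 1 to 3, beside -0.29, -0.29 and -0.30 for all genes that were lower. The ratio of Tagln to Acta2 was 0.82, 0.83 and 0.86 in the DMSO libraries and 0.93, 0.91 and 0.94 in the GSK101 libraries.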
